A study of Mus musculus with 6 samples.

Results

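The Wnt ligands, their receptors, the secreted proteins that restrain or strengthen them and the genes that the pathway switches on were examined in mouse lung buds at E11.5. The set was a fixed list of 48 genes: 18 Wnt ligands, 10 Frizzled receptors, the 2 co-receptors Lrp5 and Lrp6, 10 inhibitors, the 2 R-spondin agonists Rspo2 and Rspo3, and 6 feedback regulators and targets. A probe with that gene as its only annotated gene existed for 47 of them, out of 19938 genes measured in all. Tcf7 was not analysed here. Levels are log2 expression values, so a difference of 1 is a doubling, and the levels of different genes come from different probes and were not set against each other.

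In canonical Wnt signalling, a secreted ligand brings a Frizzled receptor together with Lrp5 or Lrp6 at the cell surface, which stabilises beta-catenin and lets it activate genes with the Tcf and Lef transcription factors. Dkk1 blocks the co-receptors, Sfrp proteins and Wif1 bind the ligands, and the membrane ubiquitin ligases Rnf43 and Znrf3 remove Frizzled receptors from the surface unless R-spondins, acting with Lgr receptors, clear these ligases away. In the early mouse lung, Wnt2 and Wnt2b come from the mesenchyme and are needed to specify the lung, Wnt7b comes from the epithelium, and Rspo2 is made by the mesenchyme.

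The study compared buds lacking Hdac1 and Hdac2 in the Shh lineage with buds that kept both genes, to find genes that depend on these histone deacetylases. The 3 DKO samples had the genotype Shhcre:Hdac1fl/fl; Hdac2 fl/fl, in which Cre made from the Shh locus, active in the lung epithelium, deletes floxed alleles of both genes. The 3 control samples carried Shhcre alone, so the Cre allele was shared by all 6 samples. Each sample was hybridised to 1 Affymetrix MoGene 1.1 ST array, and all came from the stated background of C57BL/6 and 129X1,129S1. The labels call the samples biological replicates without stating how many embryos went into each. The spread behind the main p-values is thus that between RNA samples within each group of 3, which limma adjusts with the spread of all genes.

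Whole buds were measured, so epithelium, mesenchyme, vessels and blood contributed together, and fewer cells of a type and less RNA per cell cannot be told apart. Hdac1 was lower in DKO buds (log2 difference -0.28, SE 0.05, adjusted p = 0.0193) and Hdac2 did not pass the test (-0.04, SE 0.06, adjusted p = 0.845). Whether their probes lie in the deleted parts is not given in the sources used here, and the Hdac1 call was lost without each array but DKO 2 (adjusted p = 0.0517 to 0.112). A further Hdac1 probe gave a difference of -0.26 (SE 0.05, limma p adjusted over all probes = 0.0251). The lung factors Nkx2-1, Tbx4 and Tbx5 averaged 10.46, 11.40 and 11.93 over all arrays. Of 12 lung epithelium markers, 9 passed the test as lower in DKO and 0 as higher, and their mean level lay between 9.15 and 9.31 on the DKO arrays and between 9.69 and 9.79 on the control arrays. All 6 smooth muscle markers passed as lower, with array means of 9.35 to 9.61 in DKO and 9.91 to 10.07 in control. Of 10 mesenchymal markers 2, Fgf10 (difference 1.05) and Meox2 (0.63), passed as higher and 0 as lower, and the median difference was 0.0. The array means, which include these 2, were 10.73 to 10.83 in DKO and 10.62 to 10.65 in control. Among 6 endothelial markers limma called 0, with array means of 9.61 to 9.79 in DKO and 9.52 to 9.58 in control. Of 6 mesothelial markers 2 passed as higher (array means of 9.09 to 9.14 in DKO and 8.89 to 8.91 in control), and of 6 cardiac muscle markers 1, Myl7, did (8.73 to 8.96 in DKO and 8.43 to 8.55 in control). Among 6 leukocyte markers limma called 0, with array means of 8.29 to 8.42 in DKO and 8.46 to 8.52 in control. It also called 0 of 5 erythroid markers (10.17 to 10.25 in DKO and 10.01 to 10.16 in control) and 0 of 4 markers of neural crest and neurons (7.50 to 7.68 in DKO and 7.62 to 7.77 in control). How far these markers account for any difference below was not tested.

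The inhibitor Dkk1 and the agonist Rspo2 rose in the DKO buds and the receptor ligase Rnf43 fell, and no other member passed the test. These were 3 of 47 members, 2 higher and 1 lower, or 6.38%, where 2.41% of all genes passed (limma, Benjamini-Hochberg adjusted p under 0.05 over all 19938 genes). Higher calls made up 1.03% of all genes and lower calls 1.38%. At an unadjusted p under 0.05 there were 12 members, 4 higher and 8 lower, where the background was 6.00% of all genes higher and 6.83% lower. The median difference over the members was -0.03 against 0.00 over all genes, and 59.6% of members lay below 0 against 49.8% of all genes. The members were chosen with earlier results of these data known, so these counts describe the list and do not test it.

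**Figure D1:**
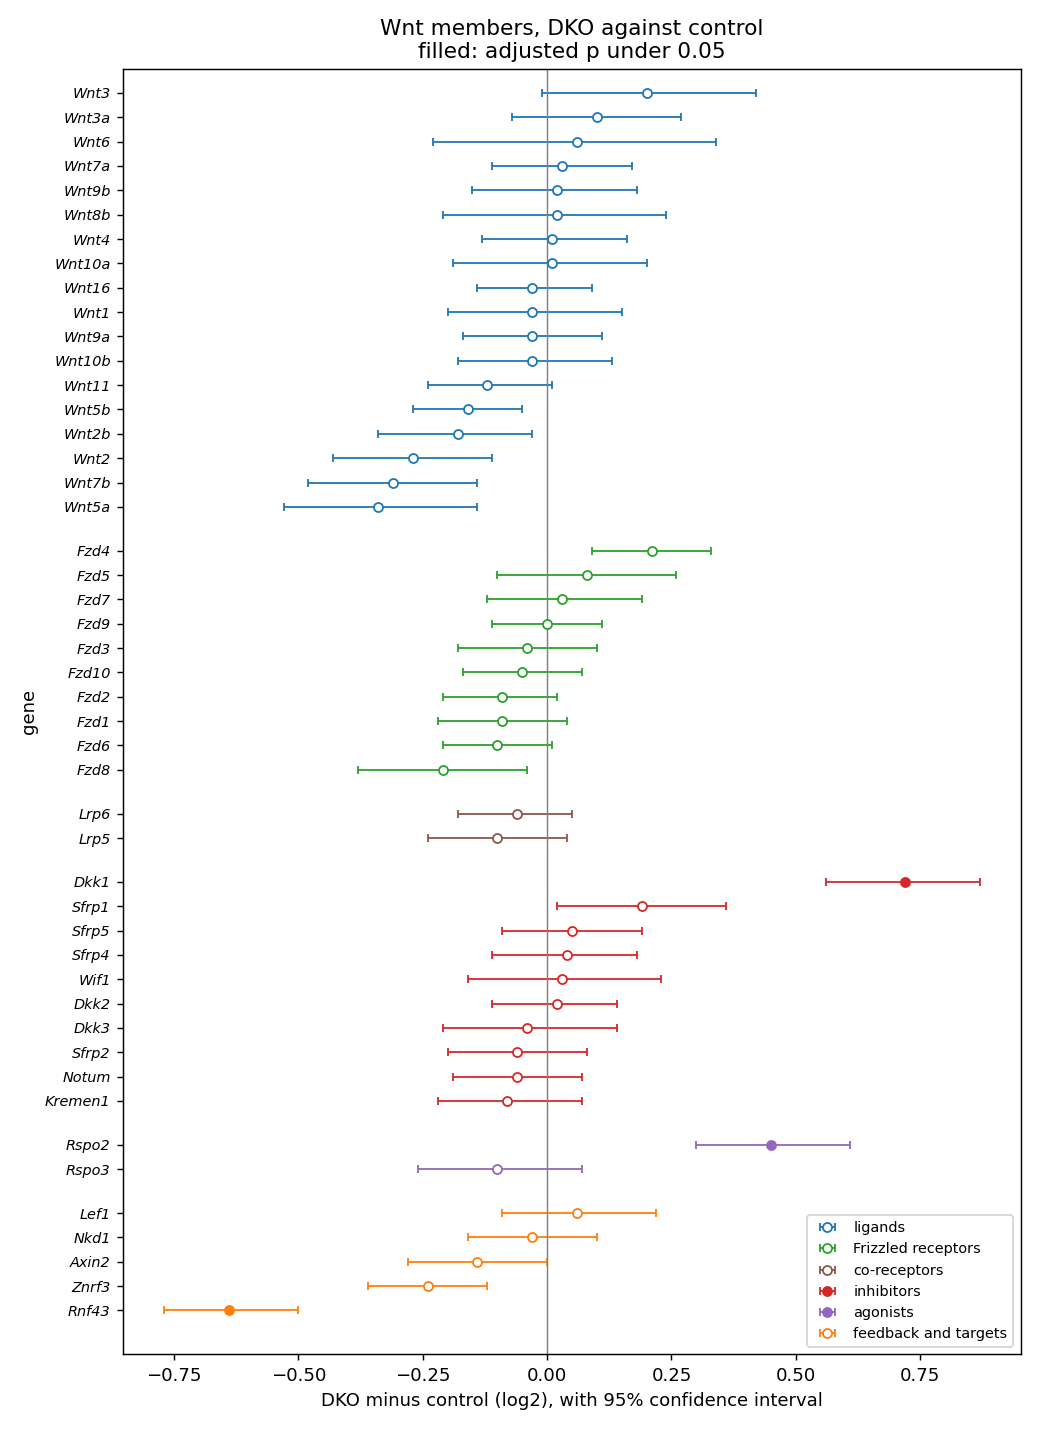
Difference between DKO and control buds for the 47 measured Wnt members, on the log2 scale (horizontal axis), by role; points are limma estimates, bars are 95% confidence intervals, and filled points have an adjusted p under 0.05. Dkk1 at 0.72 and Rspo2 at 0.45 lie to the right, Rnf43 at -0.64 lies to the left, and the remaining 44 members lie between -0.34 and 0.21.

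Among the inhibitors, Dkk1, a secreted protein that occupies Lrp5 and Lrp6 and keeps them from the ligands, was the 1 of 10 called. Its log2 level was 8.40, 8.65 and 8.57 in DKO 1, 2 and 3, against 7.82, 7.80 and 7.86 in control 1, 2 and 3. Every DKO array lay above every control array, and the gap between the nearest arrays was wider than the spread within either group. The difference was 0.72 (SE 0.07, interval 0.56 to 0.87, n = 3 per group, adjusted p = 0.00128), a 1.64-fold rise. The call held whichever array was left out, with adjusted p values of 0.000792 to 0.0113.

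Rspo2, the R-spondin of the lung mesenchyme, had levels of 10.20, 10.08 and 10.06 in DKO buds, against 9.56, 9.78 and 9.65 in control buds. The groups did not overlap, and control 2 came nearest to the DKO arrays. The difference of 0.45 (SE 0.07, interval 0.30 to 0.61, adjusted p = 0.0107) was a 1.37-fold rise. It lost its call without control 1 (adjusted p = 0.0566) or control 3 (0.0593), at differences of 0.40 and 0.44. Its relative Rspo3 had overlapping groups and a difference of -0.10 (interval -0.26 to 0.07, adjusted p = 0.684).

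Rnf43, which marks Frizzled receptors for removal and is itself a Wnt target, had levels of 8.13, 8.17 and 8.22 in DKO buds, against 8.80, 8.89 and 8.73 in control buds. All DKO arrays lay well below all control arrays. The difference of -0.64 (SE 0.06, interval -0.77 to -0.50, adjusted p = 0.00106) was a 1.55-fold fall, and it kept its call whichever array was left out (adjusted p = 0.00103 to 0.00944). The 12 lung epithelium markers had a median difference of -0.56 and ranged widely, from -0.89 to 0.08. How far a change in epithelium enters the Rnf43 difference was not tested. Znrf3, the other ligase of this kind, had levels of 9.83, 9.78 and 9.78 in DKO and 9.98, 10.10 and 10.05 in control. Its groups did not overlap, but the difference of -0.24 (SE 0.05, interval -0.36 to -0.12) lay just outside the threshold (adjusted p = 0.0521) and was inside it under 5 of 17 alternative settings.

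**Figure D2:**
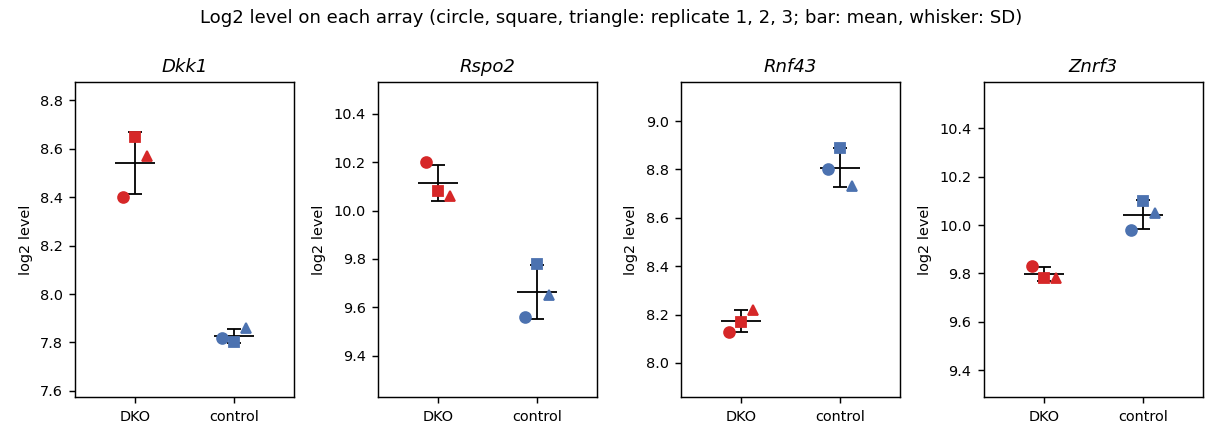
Log2 level of Dkk1, Rspo2, Rnf43 and Znrf3 on each array, DKO left and control right, with symbols for replicates 1 to 3, a bar for the mean and whiskers for the SD; the vertical axes span the same range. The DKO and control arrays are separate for all 4 genes, with Dkk1 and Rspo2 higher in DKO and Rnf43 and Znrf3 lower.

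Promoter windows are shown for the called members that have a window in the promoter table used here, made from RefSeq on build GRCm38.p6, to set the sequence of a gene that rose beside that of a gene that fell. Each window holds 250 bases before and 50 bases after an annotated transcript start and is written along the gene's own strand. The motif searched was the core that Tcf and Lef factors bind, CTTTG followed by 2 letters that are each A or T, searched on both strands, and matches are in capitals. The Dkk1 window lies at chr19:30549447-30549746 on the minus strand, and the Rnf43 windows, at 2 annotated starts, lie at chr11:87662837-87663136 and chr11:87699647-87699946 on the plus strand. No window was given for Rspo2.
Dkk1: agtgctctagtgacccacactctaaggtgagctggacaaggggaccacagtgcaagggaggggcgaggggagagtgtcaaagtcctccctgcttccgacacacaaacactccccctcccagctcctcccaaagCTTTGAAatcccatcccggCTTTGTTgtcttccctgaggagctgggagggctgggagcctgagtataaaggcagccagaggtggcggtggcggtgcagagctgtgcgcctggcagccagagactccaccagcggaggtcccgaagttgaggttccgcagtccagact
Rnf43, first start: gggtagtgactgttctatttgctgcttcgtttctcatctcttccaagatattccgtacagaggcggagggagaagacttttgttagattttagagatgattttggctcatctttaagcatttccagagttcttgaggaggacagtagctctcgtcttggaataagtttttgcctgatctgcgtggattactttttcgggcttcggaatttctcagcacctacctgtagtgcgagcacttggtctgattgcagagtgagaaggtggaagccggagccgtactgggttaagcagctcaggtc
Rnf43, second start: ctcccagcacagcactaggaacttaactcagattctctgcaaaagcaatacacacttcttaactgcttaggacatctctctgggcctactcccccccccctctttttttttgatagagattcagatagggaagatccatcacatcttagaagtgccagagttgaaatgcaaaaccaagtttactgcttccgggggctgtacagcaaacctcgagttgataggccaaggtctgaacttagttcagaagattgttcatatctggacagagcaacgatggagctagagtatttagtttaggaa

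The Dkk1 window held 2 matches, beginning 117 and 98 bases before the start, and both Rnf43 windows held 0. Windows existed for 31 of the 48 members, and in 6 of those 31 genes at least 1 window held a match: Dkk1, Fzd7, Lef1, Wnt11, Wnt3 and Wnt5b. These were 19.4% of the members with a window, against 18.9% of all genes with one. Counted by window, matches occurred in 6 of 39 member windows (15.4%), against 16.9% of all 32851 windows in the table. Member windows were richer in G and C (median 66.3% against 52.7%), and these shares were not adjusted for it. Axin2, the standard read-out of canonical signalling, held 0 matches in its window. A match in these letters is not a binding site, and these arrays did not measure binding.

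None of the 18 ligands passed the test, a count near the background of 2.41% of all genes, and 5 of them had an unadjusted p under 0.05, all lower in DKO, where 6.83% of all genes were lower at that level. For these same 5 ligands the 3 DKO arrays lay below the 3 control arrays, where 10.4% of all genes did so. Over all 47 members the arrays did not overlap for 15 genes, 12 lower and 3 higher in DKO, where 18.8% of all genes were separate and 8.36% were separate and higher. Wnt7b, the epithelial ligand that signals to the mesenchyme, had levels of 8.64, 8.94 and 8.83 in DKO and 9.12, 9.14 and 9.07 in control. DKO 1 was the lowest array and DKO 2 the nearest to control. The difference was -0.31 (SE 0.08, interval -0.48 to -0.14, adjusted p = 0.0859). It passed without DKO 2 (adjusted p = 0.0154) but not without any other array (0.132 to 0.281).

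Wnt2, a mesenchymal ligand of lung specification, had levels of 9.90, 9.88 and 9.66 in DKO and 10.05, 10.09 and 10.12 in control. The control arrays were tightly grouped and DKO 3 was the lowest array (difference -0.27, SE 0.07, interval -0.43 to -0.11, adjusted p = 0.104). Wnt2b, its partner in lung specification, had levels of 8.97, 8.96 and 9.18 in DKO and 9.24, 9.22 and 9.20 in control. Here DKO 3 almost reached the control arrays (difference -0.18, SE 0.07, interval -0.34 to -0.03, adjusted p = 0.265). The array that was lowest for Wnt2 was thus the highest of the DKO arrays for Wnt2b.

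Wnt5a, a ligand of mainly non-canonical signalling that shapes the distal lung, had levels of 8.47, 8.19 and 8.16 in DKO and 8.62, 8.67 and 8.52 in control. DKO 1 stood near the control arrays and the other DKO arrays well below them. The difference was -0.34 (SE 0.09, interval -0.53 to -0.14, adjusted p = 0.0960). It passed without DKO 1 (adjusted p = 0.0144) but not without any other array (0.115 to 0.323). Its close relative Wnt5b had levels of 8.16, 8.17 and 8.17 in DKO and 8.33, 8.29 and 8.36 in control. The groups were separate but the shift was small (difference -0.16, SE 0.05, interval -0.27 to -0.05, adjusted p = 0.152).

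The other 13 ligands had overlapping groups. Wnt11 was at -0.12 (interval -0.24 to 0.01) and Wnt3 at 0.20 (interval -0.01 to 0.42), and the rest lay between -0.03 and 0.10. Of the 18 ligands, 5 were among the dimmest 30% of genes and 11 among the dimmest 50%, and the files hold no detection calls for these probes. The 5 ligands with an unadjusted p under 0.05 were all outside the dimmest 50%.

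**Figure D3:**
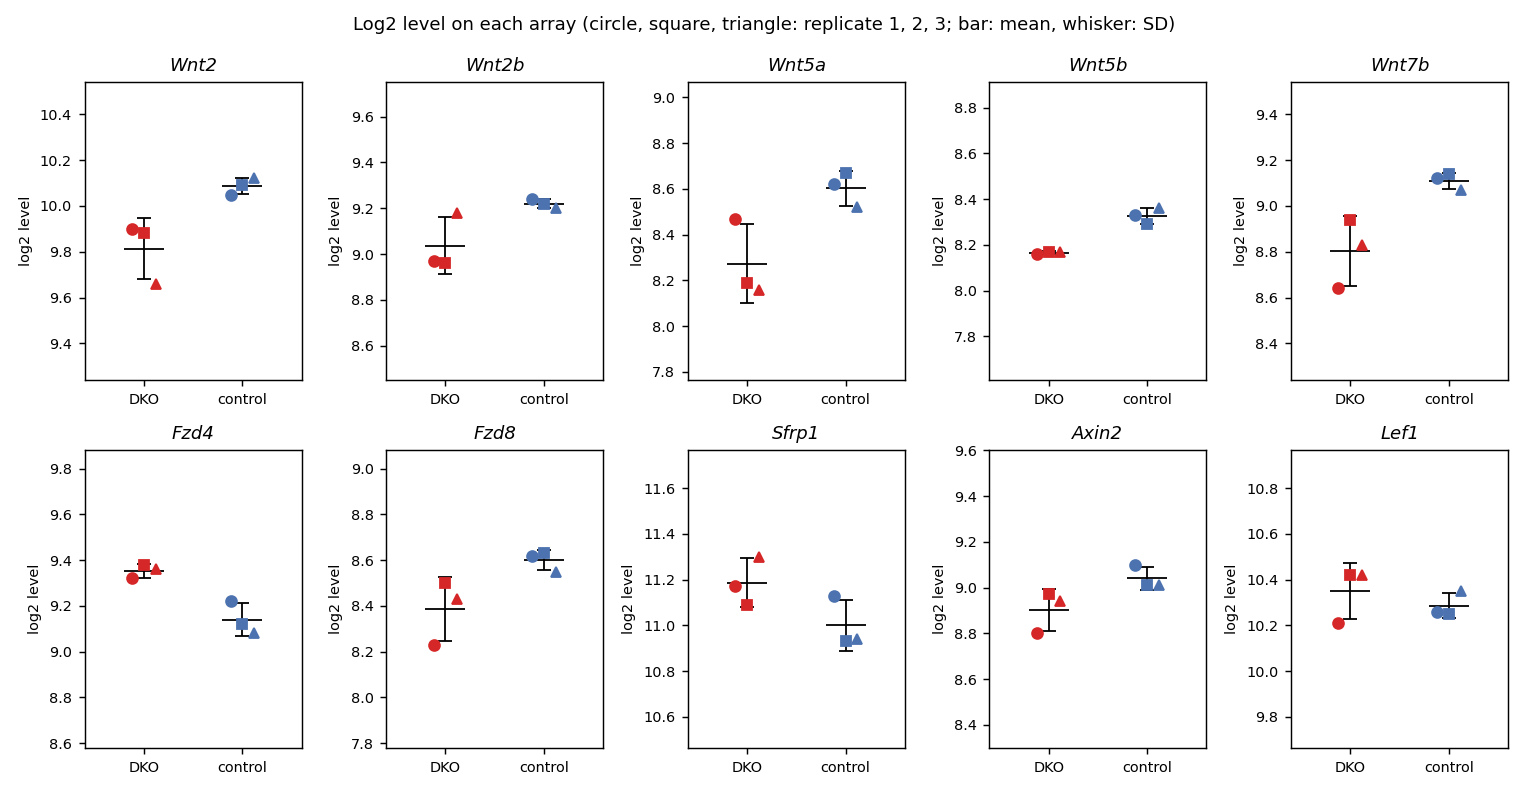
Log2 level on each array for 5 ligands, 2 Frizzled receptors, Sfrp1, Axin2 and Lef1, DKO left and control right, with symbols for replicates 1 to 3, a bar for the mean and whiskers for the SD; the vertical axes span the same range. The 5 ligands, Fzd8 and Axin2 are lower on every DKO array, Fzd4 is higher on every DKO array, and Sfrp1 and Lef1 overlap, while none of the 10 passed the adjusted test.

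The limma fit called 0 of the 10 Frizzled genes and 2 co-receptors, and the unadjusted p was under 0.05 for 2 of them. All 12 differences were smaller than 0.25. With 2.41% of all genes called, 12.8% at an unadjusted p under 0.05 and 95.7% of differences smaller than 0.25, these counts were near the background. The arrays did not overlap for 5 of the 12 genes, 4 lower and 1 higher in DKO. Over all genes 18.8% were separate, and 10.4% were separate and lower. Fzd4, the Frizzled that also serves the vascular ligand Norrin, had levels of 9.32, 9.38 and 9.36 in DKO and 9.22, 9.12 and 9.08 in control. It was the 1 receptor higher on all DKO arrays (difference 0.21, SE 0.05, interval 0.09 to 0.33, adjusted p = 0.0998). Fzd8 had levels of 8.23, 8.50 and 8.43 in DKO and 8.62, 8.63 and 8.55 in control. DKO 1 was lowest and DKO 2 lay close to control 3 (difference -0.21, SE 0.07, interval -0.38 to -0.04, adjusted p = 0.241).

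Fzd10, known as a receptor through which Wnt7b can act, had levels of 7.88, 7.96 and 7.99 in DKO and 7.99, 8.04 and 7.95 in control. The arrays were interleaved (difference -0.05, interval -0.17 to 0.07, adjusted p = 0.810). Lrp5 had levels of 9.82, 10.01 and 9.89 in DKO and between 9.96 and 10.05 in control, again with overlap (difference -0.10, interval -0.24 to 0.04, adjusted p = 0.611). Lrp6 was at -0.06 (interval -0.18 to 0.05). Fzd2 at -0.09 and Fzd6 at -0.10 were lower on all DKO arrays without an unadjusted p under 0.05, and Fzd1, Fzd3, Fzd5, Fzd7 and Fzd9 lay between -0.09 and 0.08.

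Beside Dkk1, none of the inhibitors passed the test. Sfrp1, a decoy that binds Wnt ligands, had levels of 11.17, 11.09 and 11.30 in DKO and 11.13, 10.93 and 10.94 in control. Control 1 lay above DKO 2, so the groups overlapped (difference 0.19, SE 0.08, interval 0.02 to 0.36, adjusted p = 0.331). The other 8 inhibitors had differences between -0.08 for Kremen1, the receptor that Dkk1 uses to clear Lrp6, and 0.05 for Sfrp5. Among them were the Dkk1 relatives Dkk2, at 0.02 (interval -0.11 to 0.14), and Dkk3, at -0.04 (interval -0.21 to 0.14). Their intervals lie wholly below that of Dkk1, although the difference between the genes was not tested.

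Of the transcriptional targets, Axin2, a negative feedback scaffold induced by canonical signalling in most tissues, had levels of 8.80, 8.97 and 8.94 in DKO and 9.10, 9.01 and 9.01 in control. All DKO arrays were lower, but DKO 2 and control 2 differed by less than the spread within a group. The difference was -0.14 (SE 0.06, interval -0.28 to 0.00, adjusted p = 0.397). Lef1, a Tcf family factor that is itself induced by Wnt, had levels of 10.21, 10.42 and 10.42 in DKO and 10.26, 10.25 and 10.35 in control, with DKO 1 below every control array and the other DKO arrays above them (difference 0.06, interval -0.09 to 0.22, adjusted p = 0.805). Nkd1, a further feedback inhibitor, was at -0.03 (interval -0.16 to 0.10), and Notum, a secreted enzyme that inactivates ligands and is also induced by them, at -0.06 (interval -0.19 to 0.07). The interval of Rnf43 lay wholly below those of Axin2, Lef1, Nkd1 and Notum, although the difference between these genes was not tested.

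A second list held 81 genes of the wider pathway that are not members, of which 80 were measured. Of these, 6 (7.5%) passed the test, 2 higher and 4 lower, where 2.41% of all genes did. This list too was chosen with earlier results of these data known, so its counts describe it and do not test it. The 2 that rose belong to Norrin signalling, in which the cystine-knot ligand Norrin (Ndp) acts through Fzd4, Lrp5 and the tetraspanin Tspan12 and is best known in the vessels of the mouse retina. Ndp had levels of 8.29, 8.26 and 8.12 in DKO and 7.79, 7.96 and 7.88 in control, which were separate (difference 0.35, SE 0.07, adjusted p = 0.0314, 1.27-fold). Tspan12 had levels of 9.34, 9.41 and 9.35 in DKO and 8.92, 9.13 and 9.04 in control, also separate (difference 0.34, SE 0.06, adjusted p = 0.0297, 1.26-fold). Fzd4 thus stood at 0.21 beside these, and Lrp5 at -0.10. Setting these 4 genes together was decided after their values were seen. Ndp lost its call without DKO 1 or any of the control arrays (adjusted p = 0.0622 to 0.149), and Tspan12 lost it without DKO 1, DKO 3, control 1 or control 3 (0.0590 to 0.124).

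The 4 that fell have different roles. Celsr1, a cadherin of planar cell polarity, had levels of 8.75, 9.03 and 8.97 in DKO and 9.47, 9.55 and 9.57 in control, a wide gap (difference -0.61, SE 0.08, adjusted p = 0.00460, 1.52-fold lower), and it kept its call without each array (adjusted p = 0.00146 to 0.0320). Cer1, a secreted antagonist of the Cerberus family, had levels of 6.66, 6.94 and 6.98 in DKO and 7.33, 7.33 and 7.59 in control (difference -0.56, SE 0.10, adjusted p = 0.0221). The secreted Frizzled-related protein gene Frzb had levels of 6.86, 6.70 and 6.86 in DKO and 7.11, 7.16 and 7.07 in control (difference -0.30, SE 0.06, adjusted p = 0.0371). For both the groups were separate, and Frzb lies among the dimmest 30% of genes and Cer1, like Ndp, among the dimmest 50%. Ccnd1, which encodes cyclin D1 and can be a Wnt target, averaged 11.42 ± 0.12 in DKO and 11.76 ± 0.03 in control (SD, n = 3 each), with separate groups (difference -0.34, SE 0.07, adjusted p = 0.0355). Cer1 lost its call without control 1, 2 or 3 (adjusted p = 0.0634 to 0.0828). Frzb lost it without each array but DKO 2 (0.0521 to 0.167), as did Ccnd1 (0.0545 to 0.165).

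**Figure D4:**
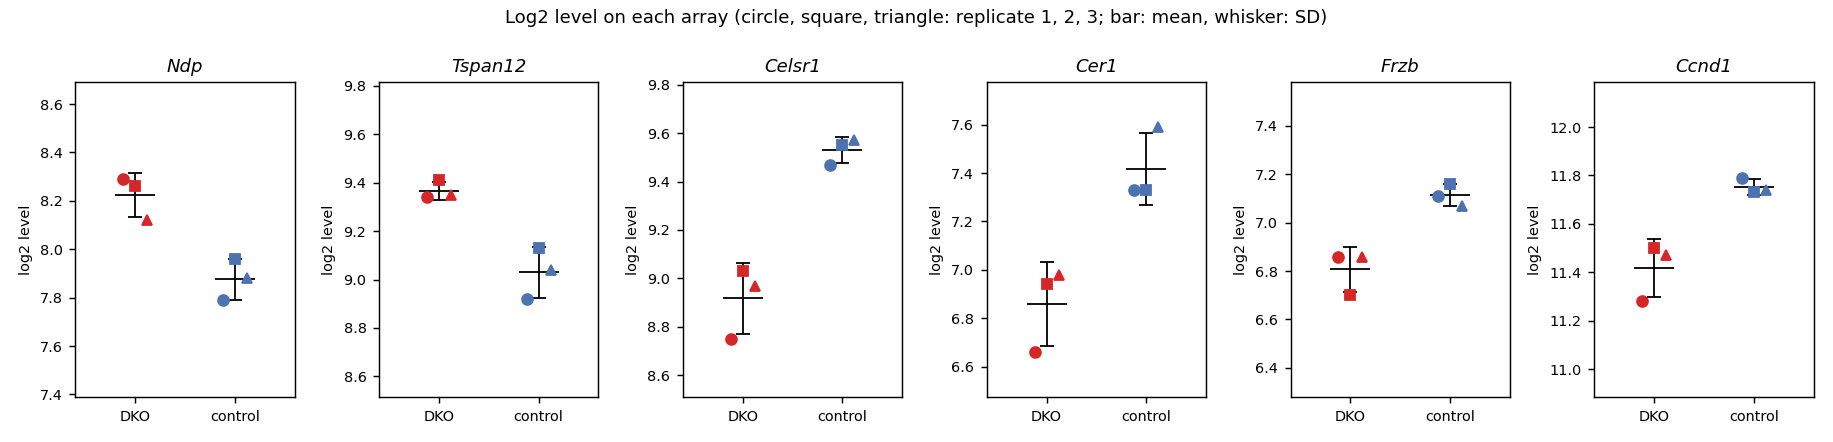
Log2 level on each array for the 6 called genes of the wider Wnt pathway, DKO left and control right, with symbols for replicates 1 to 3, a bar for the mean and whiskers for the SD; the vertical axes span the same range. Ndp and Tspan12 are higher on every DKO array, and Celsr1, Cer1, Frzb and Ccnd1 are lower on every DKO array.

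For the 18 genes of the destruction complex and transduction limma called 0, which is near the background of 2.41% of all genes, and 0 had an unadjusted p under 0.05, where 12.8% of all genes did. Among them was beta-catenin (Ctnnb1) at -0.09 (interval -0.20 to 0.01). Of the 12 nuclear cofactors 0 were called by limma and 1, Tle2, had an unadjusted p under 0.05, and the Tcf family genes Tcf7l1 and Tcf7l2 were at -0.04 and 0.03. The ligand-secretion genes Wls and Porcn were at 0.01 and 0.12. Among the R-spondin receptors, Lgr4 was at 0.03 (interval -0.16 to 0.23), Lgr5 at -0.11 (interval -0.23 to 0.02) and Lgr6 at -0.22 (interval -0.37 to -0.08, adjusted p = 0.144). Of the 8 planar polarity genes 7 were below 0, with a median of -0.13, where 49.8% of all genes lay below 0. Limma called 1 of them, Celsr1, and 3 were lower at an unadjusted p under 0.05, where 6.83% of all genes were. In 4 of the 8 every DKO array was lower, where 10.4% of all genes were separate and lower. After Celsr1 the lowest were Prickle2 at -0.19 (adjusted p = 0.110) and Prickle1 at -0.17 (adjusted p = 0.158).

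**Figure D5:**
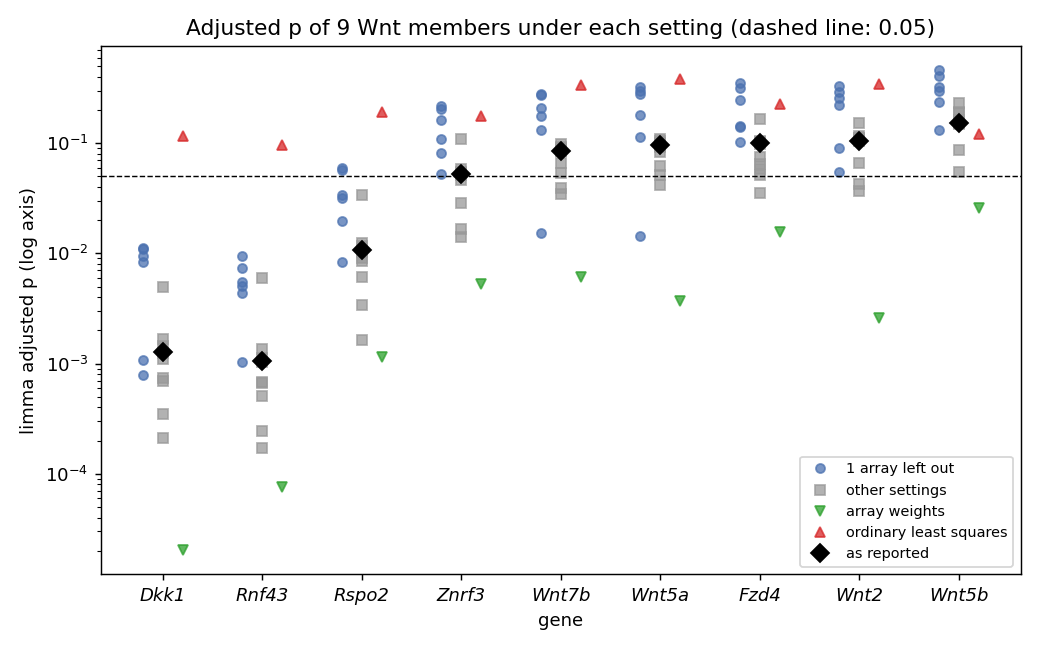
Limma adjusted p (vertical log axis) for 9 Wnt members as reported (diamond), with 1 array left out (circles), with array weights or ordinary least squares (triangles) and under the other settings (squares); the dashed line is 0.05. Dkk1 and Rnf43 lie under the line in all but ordinary least squares, Rspo2 also crosses it without control 1 or control 3, and the other 6 genes are above it as reported and fall below it under some settings.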

How the data were processed

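Total RNA (100 ng per sample) of 6 lung bud samples was amplified, labelled with biotin and hybridised to Affymetrix MoGene 1.1 ST arrays, per the labels' protocols. The authors deposited log2 expression values for 35556 probe sets, and oligo, RMA and limma are named without version or settings in the submitters' processing notes. RMA makes the arrays' distributions alike, so a change common to all genes would not be seen. The genome build of the probes is not given in the sources used here, and the log base was taken from RMA and from the range of 3.42 to 14.27. With 3 arrays per group, the number of arrays limits the precision.

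The platform annotation gave 1 gene for 21789 probes, several for 1621 and none for 12146. The brightest probe of each gene was kept (19938 genes, 19856 of them matched to RefSeq by Entrez identifier, with 0 symbols changed). Differences are DKO minus control from limma (version 3.58.1, under R 4.3.3), fitted with lmFit and eBayes and tested two-sided, with group as the only term. P-values were Benjamini-Hochberg adjusted over all genes, with a threshold of 0.05 and 95% intervals, and the script was tested on simulated data. Values per array are given for members past the threshold, members with an unadjusted p under 0.05, and Wnt2, Wnt2b, Wnt5a, Wnt7b, Fzd10, Lrp5, Axin2 and Lef1. Of the wider pathway, called genes are given with their levels. Members and gene lists were chosen with earlier results of these data known. The labels do not state that a shared replicate number pairs samples, so the number was not used in the main fit. Deviations of same-numbered samples from their group means correlated at -0.064, 0.046 and 0.156 over all genes. Those of differently numbered samples correlated at -0.193 to 0.142. These values do not settle whether samples were paired. The arrays correlated at r of 0.995 to 0.999, and the DKO arrays deviated more from their group mean (SD 0.0705 to 0.105) than the control arrays (0.0596 to 0.0645). Alternatives were the replicate block, other variance models, array weights, a second normalization, median centring, other probe choices, filters on dim genes and leaving out each array.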

Additional observations from a re-analysis of the deposited data

How the results depend on the processing

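Every member kept the direction of any call under the 17 alternatives. The count of 3 members became 6 with an intensity trend, 12 with array weights and 8 without the dimmest 50% of genes. With ordinary least squares it became 0. That setting estimates each gene's spread from that gene alone, while the main limma fit also draws on the spread of all genes. Its adjusted p was 0.116 for Dkk1, 0.0970 for Rnf43 and 0.192 for Rspo2. The count was 2 to 4 with 1 array left out. Unadjusted p-values of limma under 0.05 numbered 12. Dkk1, Rnf43 and Rspo2 were called under 16, 16 and 14 of the 17 alternatives. The 6 calls of the wider pathway became 14 with array weights, 0 with ordinary least squares, 3 with the replicate block (Celsr1, Cer1 and Tspan12) and 1 to 8 with 1 array left out. Over all genes the 481 calls became 725 with an intensity trend, 2003 with array weights, 16 with ordinary least squares, 406 with the replicate block and 197 to 811 with 1 array left out: 197 when control 2 was left out, 215 for control 1 or 3, 317 for DKO 3 and 811 for DKO 2. Leaving out an array leaves fewer samples, and otherwise the cause was not tested. The members' calls were the same 3 with the replicate block, whose numbers are not known to pair the samples. Of the 47 members, 40 were outside the dimmest 30% of genes and 26 outside the dimmest 50%. Array weights gave DKO 3 a weight of 4.09 and DKO 2 a weight of 0.275, so that setting drew mostly on DKO 3 among the DKO arrays.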

Other observations

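Of the Wnt ligand genes, 8 lie side by side as 4 neighbouring pairs in the RefSeq order of protein-coding genes in GRCm38.p6. No member of these pairs was called, a count near the background of 2.41% of all genes. Wnt6 and Wnt10a on chromosome 1 were at 0.06 and 0.01, Wnt3a and Wnt9a on chromosome 11 at 0.10 and -0.03, Wnt9b and Wnt3 on the same chromosome at 0.02 and 0.20, and Wnt10b and Wnt1 on chromosome 15 at -0.03 each. Kremen1 and Znrf3 are also neighbours on chromosome 11, at -0.08 and -0.24.

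The promoter windows of the members were richer in G and C than the table as a whole, which also holds windows of non-coding genes. The median was 66.3% over 39 member windows, against 52.7% over all 32851 windows, and the median number of CpG dinucleotides was 24 against 7. The Dkk1 window had 60.7% G and C and 9 CpG dinucleotides, and the Rnf43 windows had 46.7% with 10 and 44.3% with 3.

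Wnt4 was the 1 member with a second probe of its own. The further probe gave a difference of 0.04 (SE 0.08), beside 0.01 (SE 0.07) for the brighter probe.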
